A study of Mus musculus with 10 samples.

Results

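H3K27me3 and EZH2 were described at 8 Sox genes, Sox1, Sox14, Sox21, Sox11, Sox8, Sox9, Sox10 and Sox18, in mouse embryonic stem (ES) cells. The genes were taken by symbol from the 24500 genes of the deposited count tables, and all 8 were found. The 8 were brought together as factors of the neural and neural crest lineages, which is the known role of 7 of them. Sox18 is known chiefly from the endothelium of blood and lymph vessels, so that the name does not cover it.

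Sox proteins are transcription factors that bind DNA through an HMG box related to that of Sry, and they are grouped by how alike this box is. Sox1 is a SoxB1 factor of the neural plate and neural progenitors. Sox14 and Sox21 are SoxB2 factors, Sox11 is a SoxC factor of neurons that begin to differentiate, and Sox8, Sox9 and Sox10 are the SoxE factors of the neural crest and glia. In ES cells, promoters of lineage factors of this kind are classical targets of Polycomb repressive complex 2, whose subunit EZH2 places methyl groups on lysine 27 of histone H3. The trimethylated form, H3K27me3, is associated with genes that are kept silent.

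ChIP-seq was performed in E14 cells, a mouse ES cell line, with a wild-type genotype (control) and after CRISPR-Cas9 disruption of exon 14 of Ezh2 (ex14D-Ezh2, written ex14D here). The strain field of all samples reads 12910la, and the labels give neither passage nor treatment. The mutant is named a knockout in the labels, while per the methods the alternatively spliced protein without exon 14 is still made, and the methods mention mutant lines without saying from which line each library came. Each antibody was used on 2 samples of each genotype, and 1 input was sequenced for each, which gave 10 libraries. Whether replicates came from separate cultures is not given in the sources used here, so the p-values measure the spread between these libraries, which may be technical.

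H3K27me3 and input reads were counted in promoter windows of 1000 bp around the transcription start site (TSS), and EZH2 reads over genes. The 2 inputs held 409371 and 416778 reads on genes, the H3K27me3 ChIPs between 594289 and 1450937, and the EZH2 ChIPs between 13628137 and 18403892. Levels are given as CPM, the count of a gene scaled to a common total of reads on genes. The quasi-likelihood test of edgeR, with TMM scaling, was used between genotypes, and a gene was called changed at an adjusted p under 0.05. Among 10 ES cell genes, such as Pou5f1 and Nanog, 0 had an H3K27me3 peak in all 4 libraries. Of 8 genes active in every cell also 0 had one, where 11.7% of all genes did. With so few genes these counts are a weak check. Of the 10 ES cell genes, edgeR called 1 above input and 4 below in control, and 1 above and 3 below in ex14D. The gene above input was Klf4 in both (log2 3.07 and 2.09, edgeR adjusted p = 4.77e-13 and 1.42e-07). Read counts at Ezh2 in a ChIP cannot check the genotype.

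The promoters themselves are shown first because the mark lies on CpG-rich sequence in ES cells. RefSeq promoter sequences (GRCm38.p6) were matched by symbol for 5 of the 8 genes, and the 150 bases just upstream of each start are printed 5′ to 3′ on the strand of the gene, with each CpG (the letters CG) in capitals.
Sox1, chr8:12395369-12395518, plus strand: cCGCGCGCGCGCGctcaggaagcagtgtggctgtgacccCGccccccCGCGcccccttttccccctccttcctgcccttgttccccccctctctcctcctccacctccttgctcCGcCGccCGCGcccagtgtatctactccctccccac
Sox14, chr9:99876171-99876320, minus strand: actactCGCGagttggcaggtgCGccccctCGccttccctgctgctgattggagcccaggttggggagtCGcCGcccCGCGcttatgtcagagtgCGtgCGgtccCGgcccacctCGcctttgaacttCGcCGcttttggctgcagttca
Sox21, chr14:118237031-118237180, minus strand: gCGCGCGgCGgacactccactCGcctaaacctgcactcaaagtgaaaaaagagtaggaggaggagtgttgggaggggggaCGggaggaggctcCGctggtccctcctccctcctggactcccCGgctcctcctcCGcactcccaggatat
Sox11, chr12:27342719-27342868, minus strand: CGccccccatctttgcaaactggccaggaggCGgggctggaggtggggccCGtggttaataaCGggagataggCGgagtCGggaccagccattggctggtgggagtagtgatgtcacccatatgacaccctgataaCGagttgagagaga
Sox8, chr17:25570687-25570836, minus strand: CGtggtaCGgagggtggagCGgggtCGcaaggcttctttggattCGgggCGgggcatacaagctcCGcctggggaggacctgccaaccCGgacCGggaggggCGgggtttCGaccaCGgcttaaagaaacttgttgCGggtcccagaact

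Over the 300 bases from 250 before to 50 after the start, the Sox1 promoter held 37 CpGs, the Sox14 promoter 26, the Sox21 promoter 22, and the Sox11 and Sox8 promoters 21 each. The median of the 27025 promoters in the table was 7. The Sox1 promoter was thus the richest of the 5, with as many or more CpGs than 95.2% of genes, and the 2 poorest stood at 76.7%.

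All 8 promoters carried H3K27me3 above input in both genotypes. On the scale of log2((CPM + 1)/(input CPM + 1)), each library against the input of its own genotype, the means of the 8 control promoters lay between 1.57 and 3.56 with a median of 3.10, where the median of all promoters was -1.51. In ex14D the 8 means lay between 1.01 and 4.94, with a median of 3.69 against -1.93 for all promoters. With both inputs as 1 group, edgeR called 8 of 8 above input in each genotype, where 28.8% of 20681 promoters were called in control and 23.8% in ex14D. A ratio of at least 2-fold in both libraries was met by 8 of 8 in control, with 11.3% of all promoters, and by 7 of 8 in ex14D, with 9.14% of all promoters. The exception was Sox21. The input held few reads in these windows, 7 to 24 for the 7 genes other than Sox8, and this limits the precision of each ratio.

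**Figure D1:**
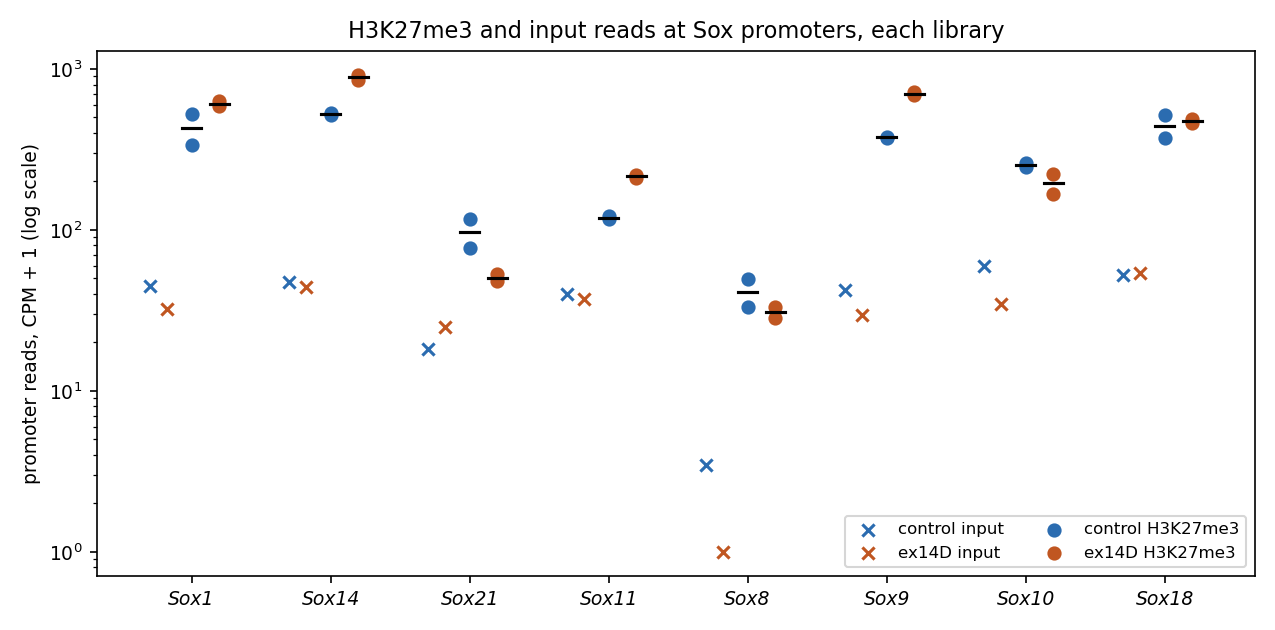
Promoter reads of each library at the 8 Sox genes, as CPM + 1 on a log axis. Circles are H3K27me3 libraries and crosses are inputs, control in blue and ex14D in orange, and black lines are the means of 2 libraries. Sox1, Sox14, Sox11 and Sox9 were higher in both ex14D libraries, Sox21 and Sox10 were lower in both, and Sox8 had almost no input reads.

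Sox1 marks neural plate cells and is one of the first genes switched on there. Its promoter had 522 and 334 H3K27me3 CPM in the control libraries 1 and 2, and 626 and 587 CPM in the ex14D libraries. The inputs had 44.0 CPM in control and 31.2 CPM in ex14D. The ex14D values lay above both control values, and the control libraries were farther apart than the ex14D libraries. The fitted change was 0.96 on the log2 scale (SE 0.22, edgeR adjusted p = 0.00388). This call rested on control replicate 2, without which the change was 0.62 with an edgeR adjusted p of 0.146.

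Of the SoxB2 genes, Sox14 was called higher and Sox21 was not called. Sox14, a factor of interneurons in the midbrain and spinal cord, had 518 and 530 CPM in control and 846 and 921 CPM in ex14D, the highest level of the 8 genes in ex14D. It rose by 1.20 on the log2 scale (SE 0.20, edgeR adjusted p = 0.000127). Sox21, which counteracts SoxB1 factors when neurons form, had 116 and 75.8 CPM in control and 46.9 and 52.1 CPM in ex14D, against input values of 17.1 and 24.0 CPM. Both ex14D libraries lay below both control libraries. The fitted change at Sox21 was -0.49 (SE 0.30, edgeR adjusted p = 0.387). Relative to its input, the mean log2 ratio of Sox21 was 2.39 ± 0.43 (SD, n = 2) in control and 1.01 ± 0.11 (SD, n = 2) in ex14D. Both libraries of a genotype were divided by the same input, of 7 reads in control and 10 in ex14D. The SDs therefore leave out the counting error of the input. The pooled ratio to input was 5.35 in control (exact interval 2.53 to 13.5) and 2.05 in ex14D (1.08 to 4.38). These intervals, at the level used for Sox8 below, overlapped.

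The SoxC gene Sox11 had the lowest control ratio to input of the 8, with 116 and 121 CPM in control and 219 and 208 CPM in ex14D. The 2 libraries of each genotype were close together and the groups did not overlap. Sox11 rose by 1.30 on the log2 scale (SE 0.22, edgeR adjusted p = 0.000198).

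Of the SoxE genes, Sox9 was called higher and Sox10 and Sox8 were not called. Sox9, which acts in the crest, in cartilage and in the testis, had 374 and 378 CPM in control and 684 and 719 CPM in ex14D. It had the largest change of the 8, 1.35 (SE 0.20, edgeR adjusted p = 3.66e-05), and stood at rank 332 from the top of 14883 promoters tested. Sox10, a factor of crest-derived glia and melanocytes, had 259 and 246 CPM in control and 220 and 167 CPM in ex14D. Here both ex14D libraries were lower in CPM, yet the TMM-scaled change was 0.06 (SE 0.21, edgeR adjusted p = 0.91). The sign of this change depended on how the libraries were scaled.

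Sox8 had 48.8 and 32.0 CPM in control and 32.4 and 27.2 CPM in ex14D, or 29, 30, 47 and 34 reads. The groups overlapped, and the change was 0.05 (SE 0.34, edgeR adjusted p = 0.963), with a sign that also depended on the scaling. All but 125 bp of the Sox8 window is shared with the window of the divergent gene 2810468N07Rik, and by default HTSeq sets reads on 2 features aside as ambiguous, so that the counts of Sox8 are uncertain. The control input had 1 read and the ex14D input 0. The control ratio of H3K27me3 to input was 15.8, with an exact 95% interval from 2.72 to 633, and in ex14D the mark was at least 4.17-fold above the limit of 3 counts in the input library. The interval and the limit cover counting error only. With Sox8 set to that limit, the medians of the 8 log2 ratios were 2.73 in control and 2.84 in ex14D.

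Sox18, the SoxF gene, had 515 and 369 CPM in control and 489 and 459 CPM in ex14D. The ex14D values lay between the control values. The fitted change of 0.55 (SE 0.21) had an edgeR adjusted p of 0.0993. With 1 library left out it ranged from 0.28, without control replicate 2, to 0.78, without control replicate 1.

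In all, H3K27me3 was called higher in ex14D at 4 of the 8 promoters, with 5.85% of 14883 promoters called higher, and lower at 0 of the 8, with 3.19% called lower. At an unadjusted p under 0.05, 5 were higher and 0 lower, with 1605 higher and 1456 lower of 14883 promoters. DESeq2 called 4 higher and 0 lower. Of 23599 promoters it called 676 higher and 264 lower and gave 18264 no adjusted p. The median change of the 8 was 0.76 and that of all promoters -0.02. Without control replicate 2 the changes at Sox14, Sox11 and Sox9 were 1.17, 1.28 and 1.31. Their edgeR adjusted p-values then rose to just under the threshold, in a fit with 1 control library. In plain CPM, 4 of the 8 had both ex14D libraries above both control libraries, with 9.1% of all promoters, and 2 had both below, with 51.2% of all promoters. TMM factors were 1.16 and 1.18 in the control libraries against 0.868 and 0.843 in ex14D, and with scaling by library size alone the median over all promoters was -0.47, with 398 promoters called higher and 2176 lower in place of 871 and 475. Under that scaling Sox14, Sox11 and Sox9 were still called higher (0.75, 0.85 and 0.90), Sox1 was at 0.51 with an edgeR adjusted p of 0.0784, and Sox21 was called lower at -0.94 (edgeR adjusted p = 0.0376). No spike-in is named in the sources used here, so a change shared by all promoters could not be seen on either scale. A call of higher is therefore a rise relative to other promoters. By Western blot the study reports less H3K27me3 in the mutant lines, and by ChIP-PCR less at the target genes it measured.

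**Figure D2:**
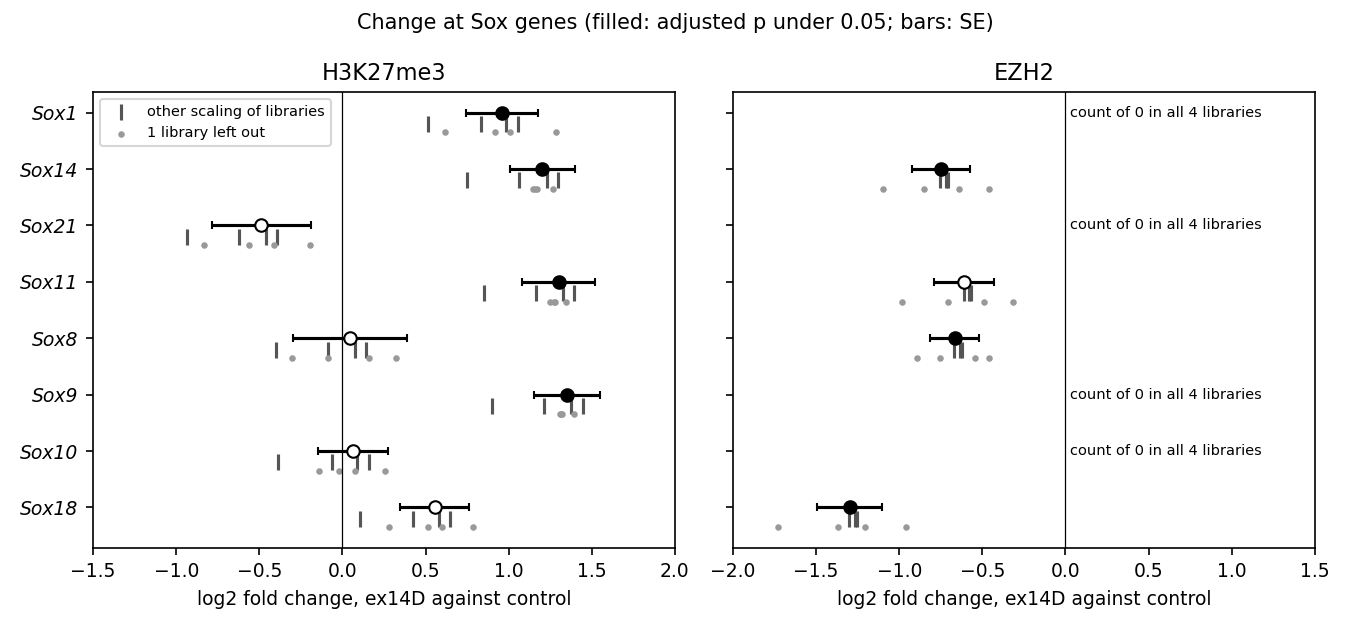
Log2 fold change in ex14D against control for H3K27me3 (left) and EZH2 (right) at the 8 Sox genes. Circles are the edgeR estimates with their approximate SE, filled where the adjusted p was under 0.05, upright ticks are other scalings, and small dots are fits with 1 library left out. Sox9, Sox11 and Sox14 stayed at or above 0.75 for H3K27me3 in all of these, Sox8 and Sox10 fell on both sides of 0, and the 4 genes with EZH2 counts stayed below 0.

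Control levels of the 4 promoters called higher ran from 118 ± 3.16 CPM (SD, n = 2) at Sox11 to 524 ± 8.51 CPM (SD, n = 2) at Sox14, and Sox10 at 253 ± 8.95 CPM and Sox18 at 442 ± 103 CPM (SD, n = 2) stood between them. Sox8 and Sox21, also not called, had the lowest control CPM of the 8, 40.4 ± 11.9 and 95.9 ± 28.5 CPM (SD, n = 2). Only 125 bp of the Sox8 window is not shared with another gene, so its CPM may understate its level. Over input, its mean log2 ratio in control was the highest of the 8, 3.56, on 1 input read. Among the 401 tested promoters whose control libraries both exceeded input by 8-fold or more, 70.6% were called higher and 0.249% lower, with a median change of 1.00. Sox14, Sox9 and Sox8 belonged to these, the last on 1 input read.

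EZH2 was counted over genes, and the counts followed gene length (Spearman's rho 0.876 to 0.913 across genes), so levels of different genes are compared per kb of gene. Of the 8 genes, 4 had EZH2 counts. In control, Sox14 and Sox18 had 41.8 and 40.8 CPM per kb, Sox11 had 7.36 and Sox8 3.38 CPM per kb. The short Sox14 and Sox18 genes lay wholly within their EZH2 domains in both control libraries. In Sox11 and Sox8 the domain covered the start and left the end of the gene uncovered. Changes are of counts over the whole gene, so that their sizes at these 4 genes are also not measured alike.

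EZH2 was lower in both ex14D libraries at all 4 counted genes in CPM, an order found for 18% of 13401 genes, with 35.6% in the opposite order. It was called lower at 3 of them, with 7.88% of genes called lower, and higher at 0, with 0.0522% called higher. At an unadjusted p under 0.05, 4 were lower and 0 higher, with 1692 lower and 452 higher of 13401 genes. DESeq2 called 2 lower and 0 higher. Of 13925 genes it called 750 lower and 0 higher and gave 2073 no adjusted p. The median change of the 4 was -0.71, and that of all genes 0.02. With no spike-in named, the EZH2 changes too are relative to other genes, and a change shared by all could not be seen. By Western blot the study reports less EZH2 protein in the mutant lines, and by ChIP-seq lower EZH2 enrichment at target genes.

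Sox18 had 69.6 and 77.5 CPM in control and 39.0 and 23.4 CPM in ex14D. It had the largest EZH2 change of the 4, -1.30 (SE 0.20, edgeR adjusted p = 0.00872), and ranked 93 from the lowest of all genes tested. Its H3K27me3 level was not called changed. Sox14 had 92.6 and 79.9 CPM in control and 63.9 and 42.0 CPM in ex14D, a change of -0.75 (SE 0.17, edgeR adjusted p = 0.0429), while its H3K27me3 level was called higher. With DESeq2 size factors in edgeR the EZH2 adjusted p of Sox14 was 0.0558.

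Sox8 had 15.0 and 17.4 CPM in control and 12.2 and 9.19 CPM in ex14D, a change of -0.67 (SE 0.15, edgeR adjusted p = 0.0354). The adjusted p of Sox8 was 0.0555 by DESeq2. Sox11 had 57.6 and 66.9 CPM in control and 51.5 and 33.2 CPM in ex14D. The change of -0.61 (SE 0.18) had an edgeR adjusted p of 0.112. At all 4 genes ex14D replicate 2 was below ex14D replicate 1, and over all genes these 2 libraries differed from each other by more than the control libraries did (chi-square over its degrees of freedom, 4.01 against 1.49).

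The EZH2 calls were lost when a control library was left out. Without control replicate 1 or without control replicate 2, edgeR called 0 of all genes in either direction, with 1372 and 1300 lower and 186 and 198 higher at an unadjusted p under 0.05, and edgeR adjusted p-values at the 4 genes rose to between 0.186 and 0.625. Without ex14D replicate 1 or 2 the changes at all 4 genes stayed below 0, with Sox11 at -0.98 and -0.32 and Sox14 at -1.10 and -0.46. In such fits the lone library is assumed to vary like the other genotype's pair.

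**Figure D3:**
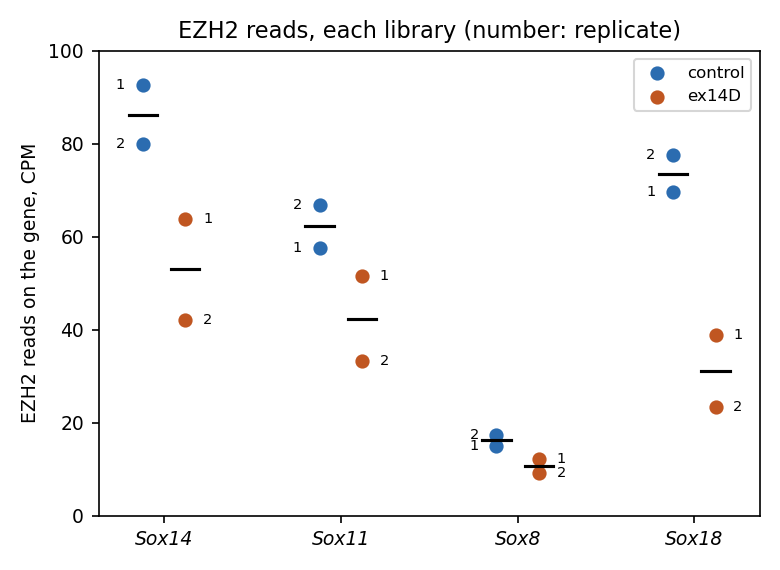
EZH2 reads on the 4 Sox genes with counts, in CPM, for each library (control in blue, ex14D in orange, black lines the means of 2 libraries, numbers the replicate). Both ex14D libraries lay below both control libraries at each gene, and ex14D replicate 2 was always the lowest.

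Sox1, Sox9, Sox10 and Sox21 had an EZH2 count of 0 in all 4 libraries, as did 43.2% of the 24500 genes. These are listed values and not levels, because EZH2 domains were found at all 4 genes. Sox9 lay in a run of 1388 neighbouring genes at 0 on chromosome 11, Sox10 in one of 705 genes on chromosome 15, and Sox21 in one of 373 genes on chromosome 14. Sox1 stood alone between counted neighbours. It lies within Gm5607, a longer counted gene, which had 4669, 6848, 3663 and 3111 EZH2 reads in control 1 and 2 and ex14D 1 and 2. No change in EZH2 counts could therefore be given for 4 of the 8 genes, among them Sox1 and Sox9, whose H3K27me3 was called higher.

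Peaks and domains were deposited for each library and cover all 8 genes. An H3K27me3 peak lay over the TSS in all 4 libraries at 8 of 8 genes, with 11.7% of 24367 genes placed on GRCm38, and an EZH2 domain lay over the promoter window in all 4 libraries at 8 of 8, with 9.82% of genes. With peaks of q under 0.001 only, 5 of 8 kept a peak in all 4 libraries. Sox8 and Sox18 lost that of ex14D replicate 1 and Sox9 that of control replicate 2. The share of all genes at this q is not given here, so this loss cannot be set against that of other genes. The median width of all H3K27me3 peaks, wherever they lay, was 1.60 to 2.17 kb in the 4 libraries, and that of the peaks at the 8 genes 12.3 to 16.6 kb. These sets are unlike, since the peaks at the 8 genes all lie over promoters. The median width of peaks over other promoters is not given here.

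Sox1 had the widest peaks, 25.5 and 27.9 kb in control and 28.6 and 26.7 kb in ex14D, reaching 14.4 to 14.9 kb upstream of the TSS. EZH2 domains there were 22 and 25 kb wide in control and 23 and 21 kb in ex14D, so that the domain and the peak both ran far beyond the gene of 4037 bp. Sox14, Sox21 and Sox9 had peaks of 16.0 to 24.2 kb. At Sox14 and Sox21 most of this width lay on the downstream side, to 12.1 kb or more past the TSS. Sox18 had narrow peaks of 4.94 to 6.39 kb, Sox11 of 5.71 to 8.92 kb, Sox8 of 5.51 to 11.8 kb and Sox10 of 8.19 to 14.3 kb.

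At Sox11 the peaks of both ex14D libraries (8.92 and 8.55 kb) were wider than those of both control libraries (5.71 and 7.67 kb), an order found for 2.32% of the 3581 genes with a peak over the promoter window in all 4 libraries. At Sox10 and Sox18 both ex14D peaks were narrower, 8.25 and 8.19 kb against 9.61 and 14.3 kb at Sox10, and 6.21 and 4.94 kb against 6.39 and 6.24 kb at Sox18, and 38.2% of these genes had that order. At the other 5 genes the widths overlapped. EZH2 domains, whose widths go by whole 1 kb steps, were narrower in both ex14D libraries at 4 of the 8 genes and wider in both at 0, where 44.3% of 2393 genes with a domain in all 4 libraries were narrower and 0% wider. They shrank from 3 and 4 kb to 2 and 2 kb at Sox8, from 9 and 11 kb to 8 and 7 kb at Sox9, from 3 and 5 kb to 2 and 2 kb at Sox10, and from 16 and 15 kb to 13 and 13 kb at Sox21. Sox11 had a domain of 6 kb in all 4 libraries. Fewer EZH2 domains were called in ex14D over the whole genome, 5067 and 4122 against 7322 and 7704 in control, and the part of this in the widths was not tested.

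**Figure D4:**
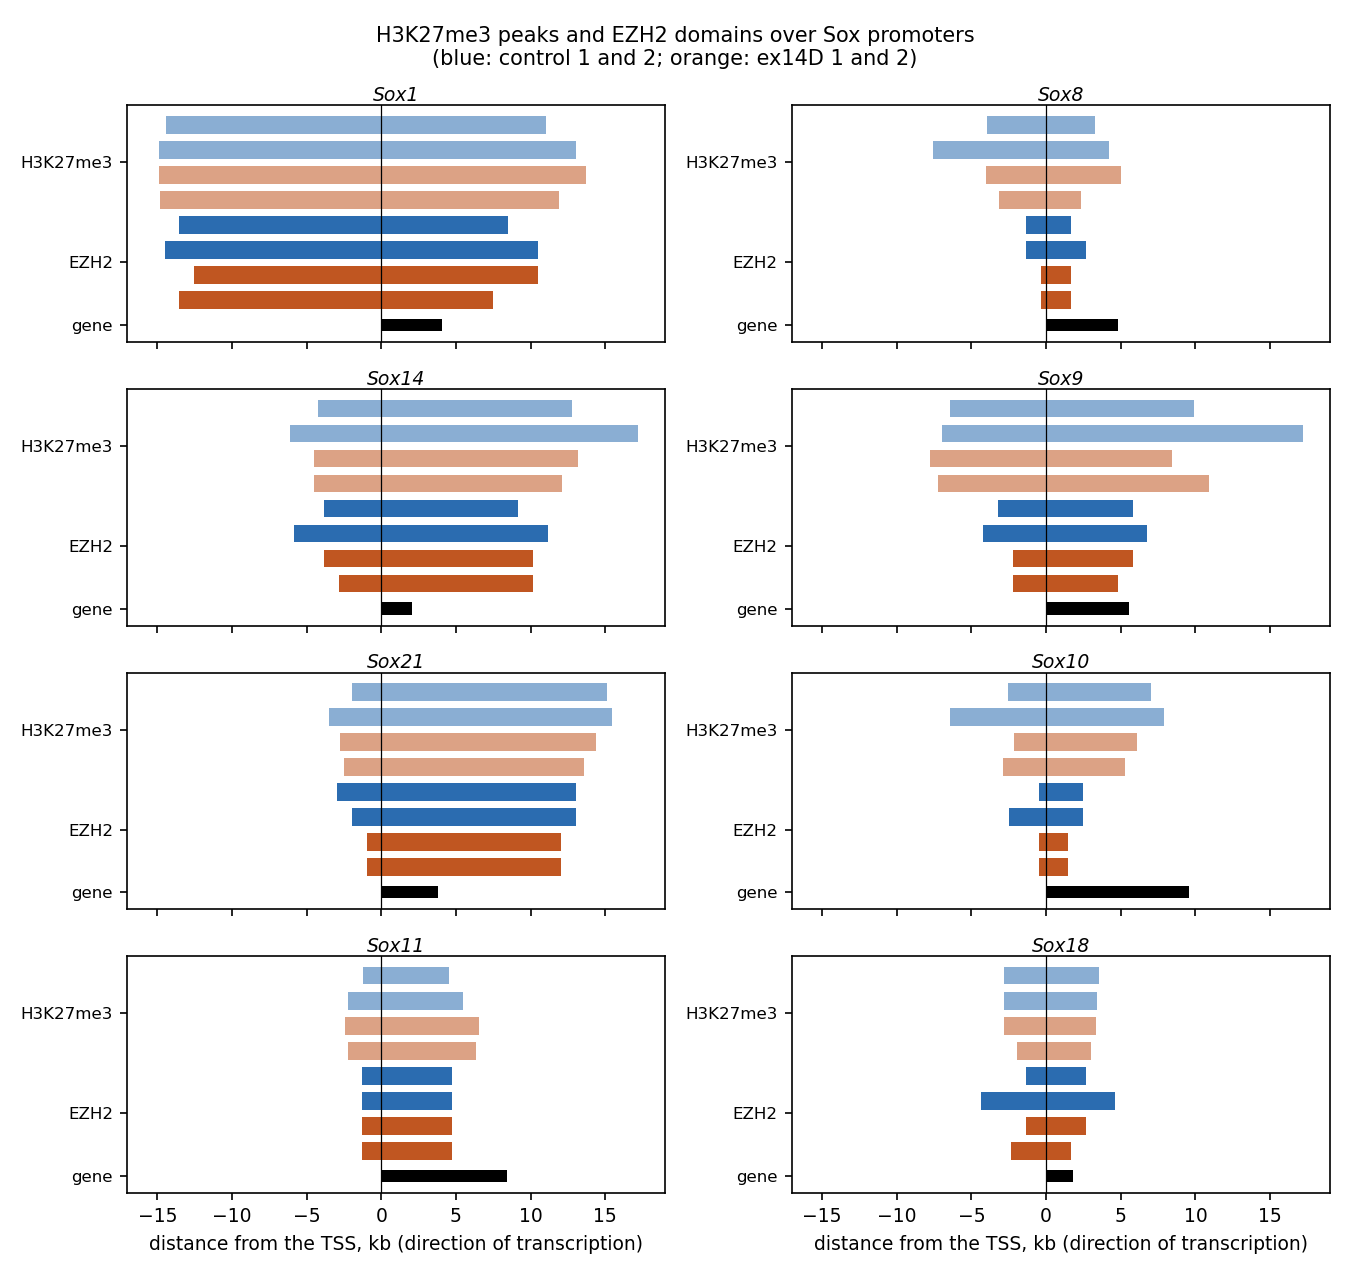
H3K27me3 peaks (pale bars) and EZH2 domains (full bars) over the 8 Sox promoters in each library, as distance from the TSS in kb along the direction of transcription. Blue bars are control 1 and 2, orange bars ex14D 1 and 2, and the black bar is the gene. Sox1 had the widest intervals, Sox21 and Sox14 extended mostly downstream, and the EZH2 domains of Sox8, Sox9, Sox10 and Sox21 were narrower in ex14D.

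The 12 other Sox genes in the tables were set beside the 8. Of these, 5 were at least 2-fold over input in both control libraries, and 5 had an H3K27me3 peak in all 4 libraries. Sox2, the pluripotency factor that ES cells use, had log2 ratios of -3.24 and -0.52 in control and a mean of -2.77 in ex14D, and was not called above or below input in either genotype (edgeR adjusted p = 0.989 and 0.0619). H3K27me3 was called higher at 4 and lower at 1 of 9 tested (median change 0.78), with 5.85% and 3.19% of all promoters. With library size only it was called higher at 2 and lower at 1, with 398 and 2176 of 14883 promoters. Sox6 and Sox7 rose by 1.01 each, Sox3 by 0.91 and Sox17 by 0.78 (edgeR adjusted p = 0.00116, 0.000829, 0.00732 and 0.00975). Sox13 fell by 1.22 (edgeR adjusted p = 0.0138), from 106 and 76.8 CPM in control to 30.3 and 26.4 CPM in ex14D. EZH2 was called lower at 5 of 7 tested, with 7.88% of all genes, namely at Sox4 (-1.24), Sox17 (-1.08), Sox3 (-0.95), Sox13 (-0.36) and Sox6 (-0.22). Without control replicate 2, H3K27me3 was called higher at 1 and lower at 0 of these genes, without ex14D replicate 1 or 2 at 2 and 0, and EZH2 was called lower at 0 without either control replicate.

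**Figure D5:**
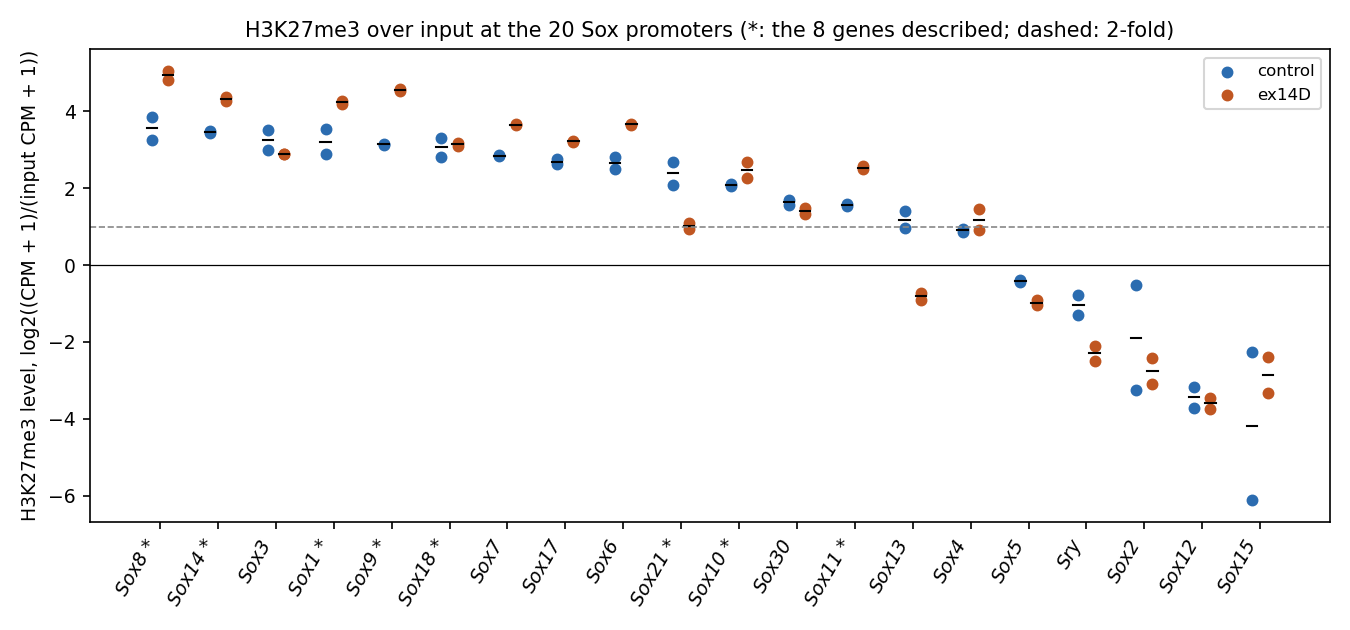
H3K27me3 over input at the 20 Sox promoters, on the scale of log2((CPM + 1)/(input CPM + 1)), ordered by the control mean. Points are libraries (control in blue, ex14D in orange), black lines the means, the dashed line 2-fold, and stars mark the 8 genes described. The 8 all lay above 1 in control, Sox8 on an input of 1 read in control and 0 in ex14D, and Sox5, Sry, Sox2, Sox12 and Sox15 lay below 0.

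Genes known from the neural crest and from neural progenitors were then counted. Of 21 neural crest genes, H3K27me3 was called higher at 14 and lower at 1 (median 0.86), with 5.85% and 3.19% of all promoters. With library size only, 8 were higher and 5 lower, with 398 and 2176 of 14883 promoters. EZH2 was called lower at 13 of 16 tested, with 7.88% of all genes. Tfap2b and Msx2, transcription factors of the neural plate border, rose by 1.49 and 1.46 in H3K27me3, and Kit, a receptor of melanocyte precursors, fell by 1.04 (edgeR adjusted p = 1.58e-05, 2.19e-05 and 0.0120). EZH2 at Tfap2b changed by -1.17 (edgeR adjusted p = 0.00947). Without control replicate 2, H3K27me3 was called higher at 4 and lower at 0, without ex14D replicate 2 at 8 and 0, without ex14D replicate 1 lower at 0 and without control replicate 1 lower at 2. EZH2 was called lower at 0 without either control replicate.

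Of 25 neural progenitor genes tested, H3K27me3 was called higher at 20 and lower at 0 (median 1.19), with 5.85% and 3.19% of all promoters. Also by DESeq2 and at an unadjusted p under 0.05, 0 of these genes were lower. With library size only, 14 were higher and 2 lower. EZH2 was called lower at 12 of 15 tested, with 7.88% of all genes. Six3, a factor of the forebrain and eye, went from 606 and 552 CPM to 1310 and 1707 CPM in H3K27me3, a rise of 1.83. Nkx2-2, a factor of the ventral neural tube, rose by 1.72. Gbx2, which acts in the hindbrain, and Hes5, a Notch target of progenitors, changed in EZH2 by -1.80 and -1.51. Without control replicate 2, H3K27me3 was called higher at 10, and without either control replicate EZH2 was called lower at 0. EZH2 was called higher at 0 genes of the Sox, crest and progenitor lists, also by DESeq2 and at an unadjusted p under 0.05.

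The genes whose H3K27me3 and input levels were most like the mean profile of the 8 were Dach1, Gpr50 and Thpo. Their Euclidean distances on log2(CPM + 1) were 0.356, 0.536 and 0.539 over 6 libraries. Dach1 had 224 and 216 CPM in control and 258 and 258 CPM in ex14D.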

How the data were processed

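ChIP-seq data of 10 libraries were used. Bowtie alignment and HTSeq counting were done by the authors, who deposited counts of whole reads for each gene without normalization. H3K27me3 and input counts are of promoter windows. The interval of the EZH2 counts is not given in the sources used here and was taken as the gene because the counts followed its length. Rows that name no gene, 92.0% to 94.0% of H3K27me3 reads as no feature, 97.9% to 98.0% in the inputs and 33.8% to 34.9% for EZH2, were left out, as were ambiguous reads (0.141% to 21.9%). The authors called MACS2 broad peaks (mm10) per library, and the fold enrichment and −log10 q of a peak are deposited values. Positions of EZH2 domains from hiddenDomains were used, and its H3K27me3 domains were not, since they ran past chromosome ends of GRCm38 on 8 chromosomes.

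Counts were fitted with edgeR 4.0.16 in R 4.3.3 (TMM, filterByExpr, two-sided quasi-likelihood F test, Benjamini-Hochberg adjustment over all features). Approximate SEs were taken as the log2 fold change over the root of F. Alternatives were DESeq2 1.42.0, other scalings, filters and pseudocounts, a replicate block and leaving out each library. Tested on simulated data with 200 changed genes, the fit recovered 49% of 2-fold and 99% of 4-fold changes among 14796 H3K27me3 promoters. Among 13378 EZH2 genes it recovered 96% and 99%. Of the simulated calls, 3.9% were false for H3K27me3 and 6.7% for EZH2. The simulation had 1 common spread in both genotypes and balanced rises and falls in well-covered genes. The real libraries differed in spread and scaling, so these rates need not hold for them. All 8 genes were named, and from each list the largest rises and falls past the threshold, up to 2 each, with all Sox genes past it. A gene that this rule also names is not reported here. The genes, lists and tests were chosen with earlier results of these data known.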

Additional observations from a re-analysis of the deposited data

How the results depend on the processing

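Over all alternatives, counts and medians stayed within their limits (1.5 times for a count, 1 SD for a median) 265 times and moved past them 55 times. With library size only, H3K27me3 calls were 398 higher and 2176 lower over all promoters, 1 lower among the 8 genes (median 0.31), 2 higher among the other Sox genes, 8 higher and 5 lower among crest genes and 2 lower among progenitor genes, Sox10 was at -0.38 and Sox8 at -0.40, and 47 genes were higher in EZH2. With all counted reads as library size, Sox10 was at -0.063, Sox8 at -0.089 and 33 genes were higher in EZH2. With DESeq2, Sox10 was at -0.026, Sox8 at -0.059, 264 promoters were lower, 0 genes were higher in EZH2 (7 at an unadjusted p under 0.05) and 2 other Sox genes were lower in EZH2. With its size factors in edgeR, 2 genes were higher in EZH2. Without a filter, Sox10 was at -0.0034 and Sox8 at -0.020. A pseudocount of 5 CPM gave median log2 ratios over input of 2.78 in control and 2.92 in ex14D. With peaks of q under 0.001, 5 of the 8 genes had a peak in all 4 libraries, and the share of all genes is not given here. The cause of these shifts was not tested.

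Same-numbered libraries deviated apart or not together (correlation -0.102 for H3K27me3 and -0.0317 for EZH2), and nothing in the labels pairs them. With a replicate block, 755 promoters were higher and 406 lower in H3K27me3, 3 genes were higher and 852 lower in EZH2, 2 other Sox genes were lower in EZH2, and Sox8 was at -0.67 with an edgeR adjusted p of 0.116, so that its EZH2 call was lost. With the numbers crossed, an alternative chosen after seeing the data, 1185 promoters were higher and 795 lower in H3K27me3 and 1 gene was higher and 955 lower in EZH2. There the EZH2 call of Sox14 was lost (-0.76, edgeR adjusted p = 0.0770), while Sox11 was called lower (-0.62, edgeR adjusted p = 0.0263).

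Leaving out 1 library at a time gave 255 to 797 promoters higher and 73 to 610 lower in H3K27me3, 0 to 81 genes higher and 0 to 1561 lower in EZH2, 0 to 4 of the 8 genes lower in EZH2 and a median EZH2 change of them from -1.04 to -0.46. In H3K27me3, 1 to 5 other Sox genes were higher and 0 to 1 lower, 4 to 12 crest genes higher and 0 to 2 lower, and 10 to 21 progenitor genes higher. In EZH2, 0 to 5 other Sox genes, 0 to 14 crest genes and 0 to 14 progenitor genes were lower. Sox10 ranged from -0.14 to 0.25 and Sox8 from -0.31 to 0.32 in H3K27me3. Depth limits the ratios over input, with 24 input reads or fewer in every window of the 8 genes, and library size only moved the fitted log2 ratio of Sox1 from 5.02 to 3.48 in control and from 5.88 to 3.99 in ex14D.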
